A study of Mus musculus with 3 samples.

Results

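The miR-200 family and the squamous-type miRNAs miR-31, miR-203 and miR-205 were followed in mouse liver small RNA. The members are 9 mature arms, chosen by name from 8 precursors (Mir141, Mir200a, Mir200b, Mir200c, Mir429, Mir31, Mir203 and Mir205), of 420 miRNA entries in all. Of 731782 distinct inserts in the 3 libraries, 651 were assigned to them. C57BL/6 is a common inbred mouse line, and every mouse had received scAAV9, an adeno-associated virus vector with a self-complementary genome, 4 weeks before its liver was taken. In the mock group the vector had no decoy. In the TuD-miR-122 and the TuD-let-7 group it encoded a Tough Decoy (TuD), a transcribed hairpin RNA that exposes binding sites for the miRNA named. Neither decoy targets a member. Each group had 1 library, and neither the number of mice behind it nor their age is known from the labels. No difference between groups therefore has a replicate check, and no test between conditions was made.

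The miR-200 family is known for repressing Zeb1 and Zeb2, transcription factors that repress E-cadherin, and for keeping cells in an epithelial state. Its members are made from a pair of clusters and differ in the seed, the short 5′ stretch by which a miRNA pairs with its targets. In liver the family is known mainly from bile duct cells. miR-203 and miR-205 are known from stratified epithelia such as skin, where miR-203 represses the transcription factor p63, and miR-31 is known from keratinocytes and from regenerating epithelia. Hepatocytes, the main cells of the liver, are an epithelium with another miRNA repertoire, led by miR-122.

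The mature sequences follow, from RefSeq (GRCm38.p6), with bases 2 to 8, the seed, in capitals. They are shown because members that differ at very few bases had to be told apart, and because the seed groups cut across the clusters.
miR-141-3p: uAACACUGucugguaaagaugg
miR-200a-3p: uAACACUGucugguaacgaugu
miR-200b-3p: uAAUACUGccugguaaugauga
miR-200c-3p: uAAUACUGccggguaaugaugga
miR-429-3p: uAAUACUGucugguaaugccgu
miR-31-5p: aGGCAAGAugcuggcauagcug
miR-31-3p: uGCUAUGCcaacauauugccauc
miR-203-3p: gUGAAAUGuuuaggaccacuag
miR-205-5p: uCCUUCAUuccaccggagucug

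miR-141-3p and miR-200a-3p share 1 seed, and miR-200b-3p, miR-200c-3p and miR-429-3p share another that differs from it at 1 base. No other entry in these libraries has either seed. Within the 22 nt that can be compared, miR-200a-3p differs from miR-141-3p by C17A and U22G, and miR-200b-3p differs from miR-200c-3p by U11G and A22G, with positions counted from 1 at the 5′ end and the first-named member's base given first. The squamous-type seeds are each unique among the entries. For all 9 members the 5′ end used here, the commonest start among untailed reads, was the RefSeq start.

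The genes lie on 4 chromosomes (GRCm38). Mir141 (6:124717914-124717985, minus strand) lies 336 nt from Mir200c (6:124718322-124718390, minus), both in an intron of the antisense RNA Gm15884. Mir141 also overlaps an exon of Gm29008. Mir429 (4:156053905-156053987, minus), Mir200a (4:156054896-156054985, minus) and Mir200b (4:156055681-156055750, minus) lie 908 and 695 nt apart in introns of the protein-coding gene Ttll10. Mir200a and Mir200b also lie in introns of the processed transcript Gm13648, and Mir429 in an exon of it, all on the same strand. Mir31 (4:88910557-88910662, minus) lies in an exon of the lincRNA AL805899.1, and Mir205 (1:193507463-193507530, minus) in an exon of the lincRNA 4631405K08Rik. Mir203 (12:112130880-112130955, plus) overlaps no other annotated gene. Each cluster thus supplies both miR-200 seeds.

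The libraries held 3450317 reads for mock, 3681585 for TuD-miR-122 and 2066892 for TuD-let-7. Values are RPM, reads scaled to 1000000 non-target miRNA reads. These leave out the loci of miR-122, of miR-98 and of let-7, except for let-7j-5p, and numbered 1377808, 1452494 and 487713. The floor of 3 reads was 2.18, 2.07 and 6.15 RPM, so TuD-let-7 is the least precise. Members took 0.664, 0.717 and 0.648% of those reads. The 4 hepatocyte miRNAs on a fixed list were detected in every library. They summed to 860412 RPM in mock, 695361 under TuD-miR-122 and 2.14e+06 under TuD-let-7. Most of this was miR-122-5p, which the scale leaves out, at 740338, 594864 and 2.00e+06 RPM. Skeletal muscle miRNAs (4 of 4 detected in each library) summed to 10509 RPM in mock, 985 under TuD-miR-122 and 226 under TuD-let-7. Exocrine pancreas miRNAs (3 of 3 detected in each) summed to 68.2, 1086 and 59.5 RPM. These lists moved between the same libraries as the members, and their part in the results below was not tested.

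In the mock liver the members ranged from 112 to 2833 RPM and were led by miR-31-5p, at rank 43 of 400 non-target miRNA entries. Read counts of different miRNAs also depend on how well each is ligated, so these are orders of reads. After miR-31-5p came miR-203-3p (1063 RPM), miR-200a-3p (1026), miR-200b-3p (742), miR-141-3p (287), miR-429-3p (253), miR-31-3p (177), miR-200c-3p (148) and miR-205-5p (112). The 95% counting intervals of miR-203-3p and miR-200a-3p overlapped, as did those of miR-141-3p and miR-429-3p, and those of miR-200c-3p with both miR-31-3p and miR-205-5p. All other neighbours in this order had separate intervals.

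The order changed in TuD-miR-122. There miR-200a-3p led with 2031 RPM, followed by miR-200b-3p (1433 RPM) and miR-31-5p (1325 RPM), whose intervals overlapped, and miR-205-5p was last with 36.5 RPM. In TuD-let-7 the first places were those of mock, with miR-31-5p at 2647 RPM, miR-203-3p at 1546 RPM and miR-200a-3p at 1070 RPM. In that library miR-429-3p, miR-31-3p and miR-200c-3p, at 146, 113 and 98.4 RPM, had overlapping intervals, and miR-205-5p was at the 3-read floor.

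**Figure D1:**
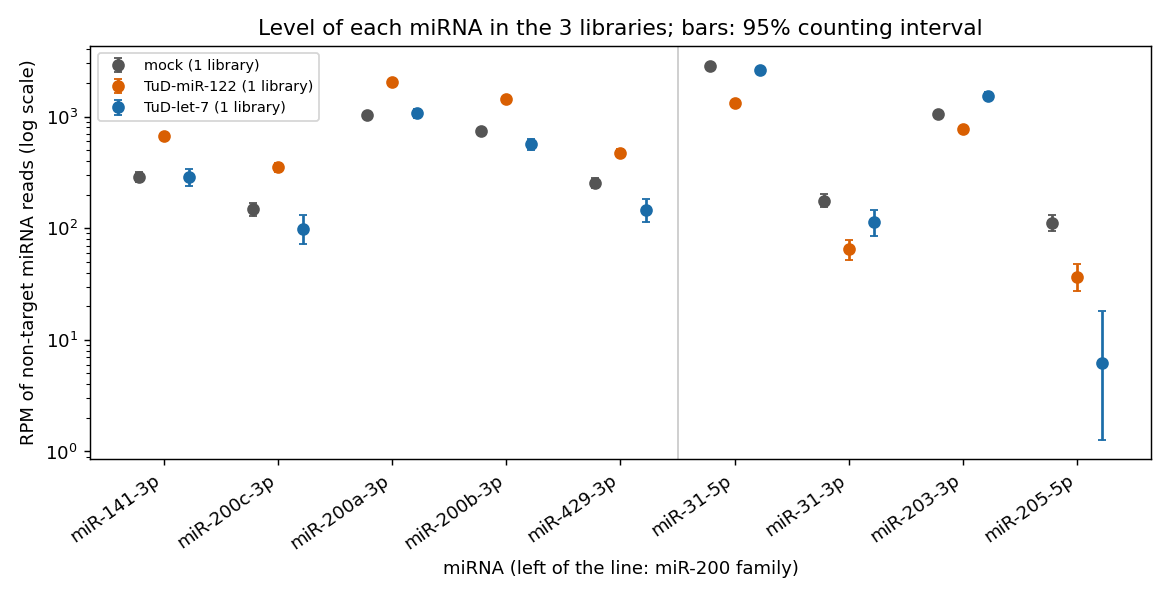
Level of each member (x axis) in RPM of non-target miRNA reads (y axis, log scale), 1 point per library, with bars for the 95% counting interval. All 5 miR-200 points are highest in TuD-miR-122, while the squamous-type points are highest in mock or TuD-let-7 and miR-205-5p spans 112 to 6.15 RPM.

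In TuD-miR-122 the 5 miR-200 miRNAs stood at 1.88 to 2.37 times mock while the 4 squamous-type arms stood at 0.324 to 0.737 of mock. miR-141-3p had 395 reads in mock and 966 in TuD-miR-122 (287 and 665 RPM), a ratio of 2.32 (95% counting interval 2.06 to 2.61). Its cluster neighbour miR-200c-3p had 204 and 510 reads (148 and 351 RPM), a ratio of 2.37 (2.01 to 2.80). Both intervals lie above 2, the rule used here for a call, which also asks for at least 100 reads over both libraries.

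The other cluster moved the same way by slightly less. miR-200a-3p had 1413 reads in mock and 2950 in TuD-miR-122, a ratio of 1.98 (1.86 to 2.11). miR-200b-3p had 1022 and 2082 reads, a ratio of 1.93 (1.79 to 2.08), and miR-429-3p had 349 and 690 reads, a ratio of 1.88 (1.65 to 2.14). These 3 intervals include 2 and exclude 1, so none was called. Summed, the chromosome 6 cluster stood at 2.34 (2.12 to 2.57), the chromosome 4 cluster at 1.95 (1.86 to 2.04) and the whole family at 2.02 (1.94 to 2.10) times mock. Within the library, chromosome 4 reads per chromosome 6 read were 4.65 (4.25 to 5.09) in mock and 3.88 (3.66 to 4.11) in TuD-miR-122, intervals that do not overlap. Both seed groups had like ratios, 2.05 (1.94 to 2.17) for the pair with miR-200a-3p and 1.98 (1.86 to 2.10) for the trio with miR-200b-3p.

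The squamous-type miRNAs were lower in TuD-miR-122. miR-31-5p had 3903 reads in mock and 1925 in TuD-miR-122 (2833 and 1325 RPM), a ratio of 0.468 (0.443 to 0.494). The opposite arm of the same hairpin, miR-31-3p, had 244 and 94 reads (177 and 64.7 RPM), a ratio of 0.365 (0.285 to 0.465). miR-205-5p had 155 and 53 reads (112 and 36.5 RPM), a ratio of 0.324 (0.233 to 0.446). All 3 passed the rule, while miR-203-3p, with 1464 and 1138 reads, stood at 0.737 (0.682 to 0.797) and did not.

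All 9 members had enough reads, and 2 were called higher and 3 lower, against 13.7% higher and 4.85% lower among all 227 non-target miRNAs tested. The members' median ratio was 1.87 and that of all tested miRNAs 0.985. Of the 5 calls, 4 were lost under some alternative. miR-200c-3p lost its call scaled to all reads (2.34), with median-of-ratios size factors (2.30) and with 1 mismatch allowed (2.32), and miR-141-3p lost its call with median-of-ratios size factors (2.25). Scaled to all miRNA reads, miR-31-5p (0.504) and miR-31-3p (0.393) lost theirs and miR-200a-3p (2.13) was called higher. miR-31-5p was also not called with 1 mismatch allowed (0.479). miR-205-5p was called lower under every alternative run.

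**Figure D2:**
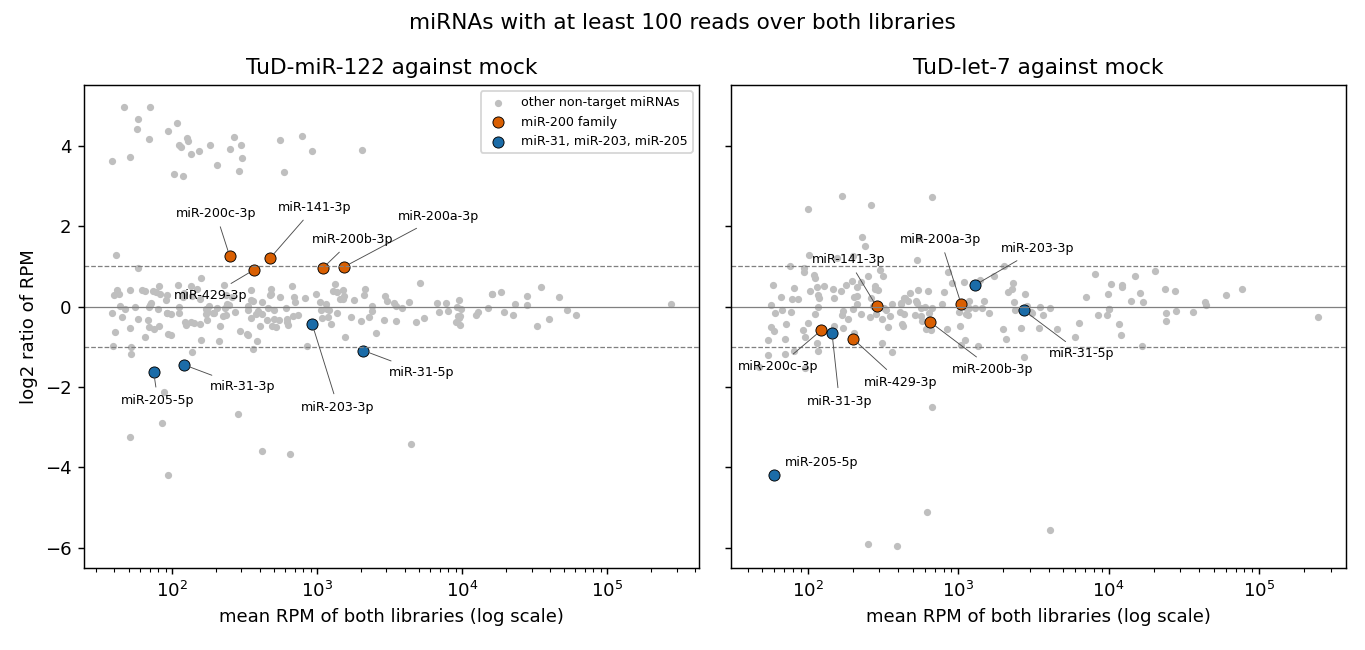
Log2 ratio to mock (y axis) against mean RPM of both libraries (x axis, log scale) for each non-target miRNA with at least 100 reads over both libraries, 1 panel per decoy, with dashed lines at 2-fold. In the left panel the 5 orange miR-200 points lie near the upper line and the 4 blue squamous-type points below 0. In the right panel 8 members lie between the dashed lines and miR-205-5p lies at -4.19.

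In TuD-let-7, which is set against the same mock library, the miR-200 family was not raised. miR-141-3p had 140 reads, a level of 287 RPM that is 1.001 of mock (0.820 to 1.22), and miR-200a-3p had 522 reads, 1.04 of mock (0.942 to 1.15). The 3 members with the other seed were lower than mock with intervals under 1. miR-200b-3p had 276 reads and a ratio of 0.763 (0.666 to 0.872), miR-200c-3p had 48 reads and a ratio of 0.665 (0.475 to 0.914), and miR-429-3p had 71 reads and a ratio of 0.575 (0.439 to 0.744). None of these passed the 2-fold rule.

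In this library the ratios lay closer together within a seed group than within a cluster, a grouping noticed in these values. The chromosome 6 cluster stood at 0.887 (0.749 to 1.05) of mock and the chromosome 4 cluster at 0.882 (0.816 to 0.952), whereas the seed trio stood at 0.709 (0.633 to 0.792) and the seed pair at 1.03 (0.945 to 1.13). The trio made up 46.6% (44.9 to 48.3) of all miR-200 reads in mock, 45.6% (44.4 to 46.8) in TuD-miR-122 and 37.4% (34.4 to 40.4) in TuD-let-7. These shares do not depend on the scaling, and the groups were drawn by sequence, with 1 library each, so this is a description of these libraries. miR-200a-3p alone took 41.8% of the family's reads in mock, 41.0% under TuD-miR-122 and 49.4% under TuD-let-7.

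Of the squamous-type miRNAs, miR-31-5p had 1291 reads in TuD-let-7 and stood at 0.934 (0.877 to 0.995) of mock, and miR-31-3p had 55 reads and stood at 0.637 (0.466 to 0.856). miR-203-3p was the only member whose interval lay wholly above 1 there, with 754 reads and a ratio of 1.45 (1.33 to 1.59). miR-205-5p had 155 reads in mock and 3 in TuD-let-7, a ratio of 0.0547 (0.0112 to 0.163). It met the read minimum through the mock library alone. It was the single call of the 9 members, against 3.63% called higher and 4.15% called lower among 193 miRNAs tested, and the members' median ratio was 0.764 against 0.983 for all.

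The TuD-let-7 ratios depend on the scale because miR-122, miR-98 and let-7 reads, except those of let-7j-5p, are left out of it. Scaled to all reads, each of these ratios is 0.591 times as large. miR-429-3p is then called lower at 0.3396, and miR-203-3p, miR-200a-3p and miR-141-3p turn to lower than mock at 0.860, 0.617 and 0.592.

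The decoy libraries were also set against each other. TuD-miR-122 held 3.57 (2.65 to 4.90) times as much miR-200c-3p, 3.26 (2.55 to 4.23) times as much miR-429-3p and 2.53 (2.23 to 2.88) times as much miR-200b-3p as TuD-let-7. These 3 of 8 members with enough reads were called higher and none lower, against 17.4% and 2.82% of 213 miRNAs. miR-141-3p at 2.32 (1.94 to 2.79) and miR-200a-3p at 1.90 (1.73 to 2.09) were not called. miR-31-5p at 0.501 (0.466 to 0.538) and miR-203-3p at 0.507 (0.462 to 0.556) lay close to the lower threshold, and miR-31-3p stood at 0.574 (0.407 to 0.816). miR-205-5p, with 53 and 3 reads, was under the read minimum. Scaled to all reads, all 5 miR-200 members were called higher (3.17 to 5.97) and the 3 squamous-type ratios rose to 0.837 to 0.960.

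The balance of both groups can be read within a library, with no scaling. miR-200 reads per squamous-type read (miR-31-5p, miR-203-3p and miR-205-5p together) were 0.613 (0.587 to 0.640) in mock, 2.31 (2.21 to 2.41) in TuD-miR-122 and 0.516 (0.479 to 0.556) in TuD-let-7. The miR-200 family was thus the smaller group in mock and TuD-let-7 and the larger in TuD-miR-122. The intervals cover counting error only, and PCR copies without molecular identifiers count as separate reads. Counting starts within 2 nt of the set 5′ end, which adds the shifted reads of miR-203-3p, gave 0.474, 1.66 and 0.401.

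Other RNAs of epithelia gave few points of comparison. On a list of 8 other epithelial miRNAs, 1 was called higher in TuD-miR-122 than in mock, 4 were within the rule and 3 had too few reads. The one called was miR-375-3p, a miRNA of pancreatic islets and other endocrine and epithelial cells, with 50.8 RPM in mock, 526 under TuD-miR-122 and 103 under TuD-let-7. The other miRNA on a fixed list of 2 pancreatic islet miRNAs, miR-7a-5p, did not follow it. It had 2460 RPM in mock, 2273 under TuD-miR-122 and 2313 under TuD-let-7. In TuD-let-7 none of the 4 listed epithelial miRNAs with enough reads was called. The cluster of miR-183-5p, miR-182-5p and miR-96-5p, known from sensory epithelia, summed to 470, 471 and 433 RPM.

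Fragments from mRNA lists other than the hepatocyte one were rare. Those of 9 keratinocyte genes numbered 1, 4 and 1 reads (mock, TuD-miR-122, TuD-let-7). Dsp had 1, 3 and 1 of them and Krt5 had 0, 1 and 0. The others, among them Krt14, Krt1, Krt10 and Trp63, were at 0 in every library. Those of 8 simple and biliary epithelium genes numbered 7, 20 and 4 reads. Of these, Cdh1, which encodes E-cadherin, had 1, 6 and 1, Krt8 had 2, 6 and 0, Krt18 had 4, 5 and 2, the bile duct gene Spp1 had 0, 3 and 0, and Epcam had 0, 0 and 1. Sox9 and the bile duct keratins Krt19 and Krt7 were at 0 in each library. Krt8, Krt18 and Cdh1 are genes of simple epithelia in general, hepatocytes included, and which cells their reads came from was not tested. Those of 8 exocrine pancreas genes numbered 8, 93 and 15 reads and those of 5 hepatocyte genes 818, 1702 and 277. Those of 6 skeletal muscle genes numbered 1, 2 and 0 reads, too few to set beside the muscle miRNAs. In such tissue samples fewer cells of a type and less RNA per cell cannot be told apart. The pancreas miRNAs and the pancreas, epithelium and hepatocyte mRNA fragments were highest in the library where the miR-200 family was highest, and the muscle miRNAs were highest in the library where miR-205-5p was highest. Their part in these results was not tested.

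By the pair of log2 ratios to mock, over 3 libraries and 241 miRNAs, the patterns nearest to miR-200c-3p were those of miR-200b-3p (Euclidean distance 0.35), miR-429-3p (0.40) and miR-141-3p (0.58). Nearest to miR-200b-3p were miR-214-3p (0.31), miR-200c-3p (0.35) and miR-144-3p (0.39). The nearest to miR-31-5p were miR-345-5p (0.26), miR-3068-5p (0.28) and miR-378a-5p (0.33), and to miR-203-3p they were miR-17-5p (0.11), miR-29a-5p (0.13) and miR-187-3p (0.16). No miRNA lay near miR-205-5p. Its nearest were miR-802-5p at 1.62 and the muscle miRNAs miR-206-3p at 2.06 and miR-133a-3p at 2.33. In TuD-let-7 miR-205-5p had 3 reads and miR-206-3p 4, so the distances of miR-205-5p and their order are imprecise. With 3 libraries many miRNAs share a pattern, and these distances are a description.

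A read of a near-identical miR-200 member with 1 changed base can look like its partner, and reads of this kind were counted. What produced them was not tested. Among reads with the bases of miR-200a-3p, 1273 in mock carried its own base at position 17 and 7 carried that of miR-141-3p (C17A). Among reads with the bases of miR-200b-3p, 806 in mock had its own base at position 11 and 5 had that of miR-200c-3p (T11G). The shares were higher in TuD-let-7 for the less abundant partners. There miR-141-3p had 106 reads with its own base and 6 with that of miR-200a-3p (A17C), and miR-200c-3p had 42 with its own base and 8 with that of miR-200b-3p (G11T). Reads with the partner's base are assigned to the partner, so these 8 are not among the 48 reads of miR-200c-3p there. Those of miR-200b-3p with T11G, which would be counted as miR-200c-3p, numbered 2. Its 48 reads, the fewest of the family, can thus be off in both directions.

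Both arms could be compared for few hairpins. miR-31-5p exceeded miR-31-3p by 15.996-fold in mock (14.1 to 18.3), 20.5-fold in TuD-miR-122 (16.6 to 25.5) and 23.5-fold in TuD-let-7 (17.9 to 31.3), with the mock and TuD-let-7 intervals slightly overlapping. Passenger arms of the other precursors were rare. miR-200b-5p had 11, 23 and 5 reads (mock, TuD-miR-122, TuD-let-7), miR-200a-5p had 3, 16 and 2, and miR-203-5p had 6, 8 and 8. The 5′ arms of Mir141, Mir200c and Mir429 and the 3′ arm of Mir205 fell short of the 10 untailed reads needed for an entry.

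miR-203-3p differed from the other members in its 5′ end. Besides the annotated form, a form starting 1 nt later had a like number of reads, and it moves the seed by 1 base. Both forms and the hairpin are shown because the shift lies inside the seed. In the forms capitals mark bases 2 to 8, and in the hairpin (12:112130880-112130955, GRCm38.p6, plus strand) they mark the annotated mature arm.
miR-203-3p, annotated start: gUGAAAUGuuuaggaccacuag
miR-203-3p, start 1 nt later: uGAAAUGUuuaggaccacuag
Mir203 hairpin: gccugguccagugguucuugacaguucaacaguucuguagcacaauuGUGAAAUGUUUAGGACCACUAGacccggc

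The later form had 1689 reads in mock, 1272 under TuD-miR-122 and 606 under TuD-let-7, against 1464, 1138 and 754 for the annotated form. It exceeded the annotated form by 1.15 (1.08 to 1.24) in mock and 1.12 (1.03 to 1.21) in TuD-miR-122 and fell below it in TuD-let-7, at 0.804 (0.721 to 0.896). Among untailed reads alone it was the smaller form throughout, with ratios of 0.735, 0.721 and 0.533. The seed of the later form, GAAAUGU, belongs to no entry in these libraries. Reads with any start within 2 nt other than the set one made up 54.8% of miR-203-3p in mock, 53.8% under TuD-miR-122 and 45.6% under TuD-let-7, the highest share of 82, 85 and 51 miRNAs with at least 1000 reads. The median miRNA had 1.79, 1.89 and 1.83%, and no other member exceeded 4.31%.

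**Figure D3:**
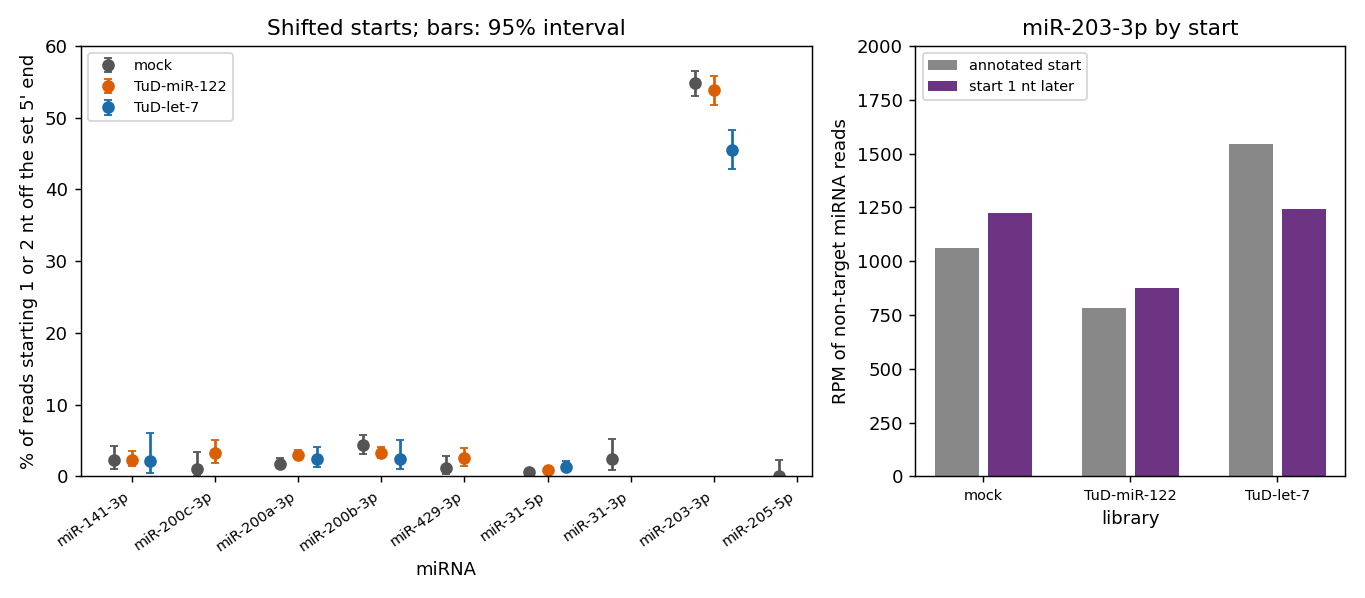
Left, percent of reads that start 1 or 2 nt from the set 5′ end (y axis) for each member (x axis), with bars for the 95% interval, in libraries with at least 100 reads of the member. Right, RPM of miR-203-3p (y axis, from 0) by start in each library (x axis), where the later start is higher in mock and TuD-miR-122 and lower in TuD-let-7.

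Both forms of miR-203-3p had different ratios in TuD-let-7. The annotated form stood at 1.45 (1.33 to 1.59) of mock and the later form at 1.01 (0.922 to 1.11). Scaled to all reads the annotated form was at 0.860 of mock and scaled to all miRNA reads at 0.923, so it was above mock on the non-target scale but not on these. In TuD-miR-122 they moved alike, at 0.737 (0.682 to 0.797) and 0.714 (0.664 to 0.769). Both forms ended at the same base, since the commonest untailed length was 22 nt for the annotated and 21 nt for the later form. Tails, 3′ ends of up to 5 nt that depart from the precursor, were commoner on the later form, at 54.0% against 27.8% in mock, 56.8% against 33.1% in TuD-miR-122 and 55.6% against 33.0% in TuD-let-7. Most were uridines: tails of uridine only stood on 37.4% of the later form and 19.3% of the annotated form in mock.

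Tailed shares varied widely among the members. Among miRNAs with at least 1000 reads the median tailed share was 25.4% in mock, 22.4% under TuD-miR-122 and 31.9% under TuD-let-7. In mock, miR-200a-3p had tails on 11.3% of its reads (exact Clopper-Pearson 95% interval 9.65 to 13.0) and miR-200c-3p on 12.7% (8.50 to 18.1). miR-141-3p had them on 20.3% (16.4 to 24.6), miR-200b-3p on 21.1% (18.7 to 23.8) and miR-429-3p on 35.2% (30.2 to 40.5). Within the family the tailed share thus ran from 11.3 to 35.2%, and neither the cluster nor the seed grouped the members.

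The make-up of the tails differed between members. In mock, tails of adenosine only stood on 9.002% of miR-200b-3p reads and tails of uridine only on 9.69%. For miR-31-5p these shares were 23.3 and 2.36%, and for miR-205-5p 20 and 1.29%. miR-203-3p had the opposite lean, with 2.53% adenosine and 19.3% uridine. The medians over miRNAs with at least 1000 reads were 8.16 and 7.07%. The commonest single tail was 1 adenosine after base 22 for miR-31-5p (15.3% of its reads) and miR-205-5p (17.4%), and 1 uridine after base 22 for miR-203-3p (13.5%). miR-31-3p had the highest tailed share of the members, 50.8% (44.4 to 57.3), with 27.9% adenosine and 16.8% uridine. In TuD-let-7, miR-141-3p had 11.4% adenosine and 4.29% uridine and miR-200a-3p 2.49 and 7.28%. Of the 38 miR-200a-3p reads with only uridine there, 23 can also be read as a mismatch at base 21 (G21T) followed by matching bases. The same 23 reads are given as G21T below.

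**Figure D4:**
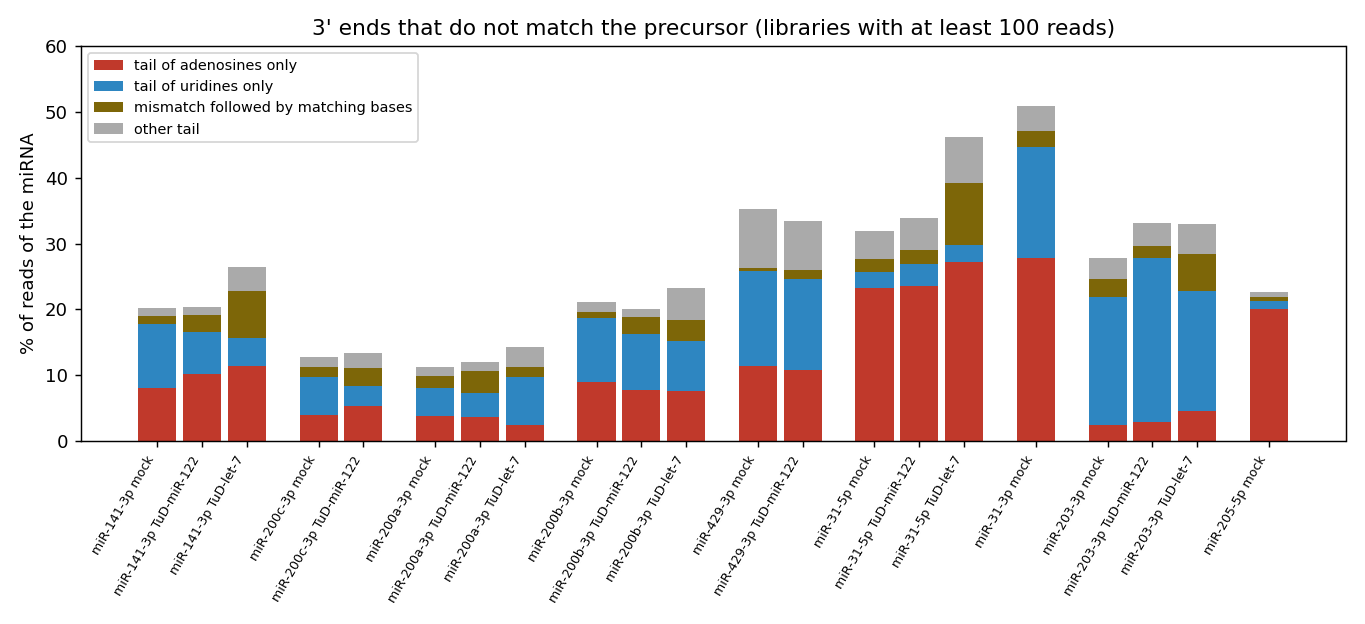
Percent of a member's reads (y axis, from 0) whose 3′ end departs from the precursor, split by kind of tail, for each member and library (x axis) with at least 100 reads of the member. Bars of miR-31-5p and miR-205-5p are mostly adenosine and those of miR-203-3p mostly uridine, and the TuD-let-7 bar of miR-31-5p stands at 46.2% with a larger mismatch part.

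Between libraries the tailed shares of the miR-200 members had overlapping intervals wherever a member had 100 reads. miR-200a-3p had 11.3% in mock, 12.1% under TuD-miR-122 and 14.4% under TuD-let-7, and miR-200b-3p had 21.1, 20.03 and 23.2%. The annotated form of miR-203-3p rose from 27.8% (25.5 to 30.2) in mock to 33.1% (30.4 to 35.9) in TuD-miR-122. This difference of 5.33 percentage points was the largest of 74 miRNAs with 1000 or more reads on either side, whose median was -0.95, and uridine tails went from 19.3 to 24.8%.

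miR-31-5p was tailed on 31.9% (30.5 to 33.4) of reads in mock, 33.8% (31.7 to 36.0) in TuD-miR-122 and 46.2% (43.4 to 48.9) in TuD-let-7. The last difference from mock, 14.2 points, ranked 2 of 49 miRNAs, whose median was 2.69. Tails that begin with a mismatch and then match the precursor again made up 9.45% of its reads in TuD-let-7 and 2.05% in mock, and 1 of them, G19T, made up 6.43% (positions from 1 at the 5′ end, precursor base first). Tails of adenosine only were at 27.3% (24.9 to 29.8) in TuD-let-7 and 23.3% (21.996 to 24.7) in mock. Allowing 1 internal mismatch left 42.2% tailed in TuD-let-7, and counting tails of at most 2 nt 36.9% against 29.0% in mock.

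The same mismatches recurred on several members within a library. In TuD-miR-122, A19C stood on 2.44% of miR-200a-3p, 1.86% of miR-141-3p, 1.57% of miR-200c-3p and 1.49% of miR-200b-3p reads. In TuD-let-7, G21T stood on 5.71% of miR-141-3p, 4.41% of miR-200a-3p and 2.54% of miR-200b-3p reads. Further in, A6C was the commonest change in TuD-let-7 for both miR-31-5p (7.46%) and miR-203-3p (5.61%), and G14T in TuD-miR-122 for the same miRNAs (4.21 and 5.11%). Whether these are base-call errors was not tested.

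Trimmed reads, those whose matching part is under 21 nt, were commoner in TuD-let-7 for miRNAs in general, with medians of 6.45% in mock, 6.89% under TuD-miR-122 and 15.6% under TuD-let-7. Reads whose match is broken by a mismatch at base 21 or shortly before it count as trimmed too, even at full length. miR-31-5p went from 6.48% (5.73 to 7.30) in mock to 5.92% in TuD-miR-122 and 15.8% (13.9 to 17.9) in TuD-let-7, a rise that ranked 12 of 49. With tails limited to 2 nt its share in TuD-let-7 was 3.72%. Reads both trimmed and tailed made up 14.3% of miR-31-5p in TuD-let-7 and 4.05% in mock, so the rise lay in tailed reads. Of its 126 reads matching 18 nt in TuD-let-7, 0 were untailed, and the same held for the 13 in mock. The trimmed shares of miR-200a-3p were 4.95% (3.88 to 6.22), 5.59% and 9.96% (7.53 to 12.9), and those of miR-203-3p 17.4, 15.4 and 20.4%. In TuD-let-7, 52 miR-200a-3p reads counted as trimmed, among them the 23 with G21T. Reads both trimmed and tailed made up 7.85% of miR-200a-3p in TuD-let-7 and 2.55% in mock. For miR-203-3p these were 8.62 and 4.03%. The commonest untailed length was the same in each library for every member with at least 100 reads there. It was 23 nt for miR-200a-3p, miR-200c-3p and miR-31-3p, 22 nt for miR-141-3p, miR-200b-3p, miR-429-3p and miR-203-3p, and 21 nt for miR-31-5p and miR-205-5p.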

How the data were processed

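Per the labels' protocols, total liver RNA was extracted with mirVana, a gel fraction of 18 to 30 nt was kept, and a published small RNA protocol gave the libraries. The deposited values are raw read counts per distinct insert sequence. For adapter removal, filters, aligner and build, the methods were not given in the sources used here.

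The inserts were matched to 1174 miRNA precursors of GENCODE M21 (GRCm38). The 5′ end of an arm was the commonest start of untailed reads, for arms with at least 10 of them, and 477 arms gave 420 entries after merging those identical over 22 nt. A read had to start at that end and match at least 16 nt, with up to 5 further nt called a tail, and under 21 matching nt called trimmed. Reads fitting several entries (0.327 to 0.347% of miRNA reads) were left out. RPM are scaled to non-target miRNA reads, without the loci of miR-122, miR-98 and let-7. The entry let-7j-5p, with 207, 29 and 39 reads (mock, TuD-miR-122, TuD-let-7), was not left out. Ratios carry exact conditional-binomial intervals and shares exact Clopper-Pearson intervals, both at 95%, covering counting error only. A call needs at least 100 reads over both libraries and an interval wholly above 2 or below 0.5. Shares are given from 100 reads of a miRNA in a library and ranked among miRNAs with at least 1000. Fragments of mRNAs were unassigned reads matching a listed gene's transcripts.

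All 9 members are named, with the other arms of their precursors and, for 5 of them, the 3 miRNAs with the nearest log2 ratios (0.5 reads added). Members, lists and rules were chosen with earlier results of these data known. Alternatives were 3 other scalings, 1 mismatch, an 18-nt minimum match, starts within 2 nt, no inserts with a single read, 2-nt tails at most, tails of only adenosine, trimming below 20 nt and a minimum of 20 reads. The counting code was tested on simulated data. Python 3.11, numpy 2.4 and scipy 1.17 were used.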

Additional observations from a re-analysis of the deposited data

How the results depend on the processing

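No paired analysis was possible because each group has 1 library, and for the same reason no replicate could be left out. Of the member counts, family sums and balances, 66 values under an alternative stayed within their counting interval or 1.5 times the main count and 24 moved. No called value changed direction, but the squamous-type sum in TuD-let-7 turned from above mock (1.05) to below it. For members called, TuD-let-7 against mock gave 2 with both scalings to all reads and to all miRNA reads, the added one being miR-429-3p, the decoy libraries against each other gave 5 with both, and TuD-miR-122 against mock gave 3 with 1 mismatch allowed and 3 with median-of-ratios size factors. The miR-200 sum against mock became 0.560 for TuD-let-7 and 2.17 for TuD-miR-122 on the scale of all miRNA reads, and 0.522 for TuD-let-7 on that of all reads. Between the decoy libraries it became 3.88 and 3.82 with these scalings. The squamous-type sum in TuD-let-7 against mock became 0.664 (all miRNA reads) and 0.619 (all reads), and between the decoy libraries 0.867 and 0.854, or 0.560 with starts within 2 nt. In TuD-miR-122 against mock it became 0.576 (all miRNA reads) and 0.575 (starts within 2 nt). miR-200 reads per squamous-type read became 0.474 in mock, 1.66 under TuD-miR-122 and 0.401 under TuD-let-7 with starts within 2 nt, 0.581 in mock and 2.18 in TuD-miR-122 with 1 mismatch, and 0.558 in TuD-let-7 with tails of at most 2 nt. The scalings multiply each ratio of a comparison by 1 factor (0.591 and 0.634 for TuD-let-7 against mock, shifting the median of all miRNAs by -0.76 and -0.66 on the log2 scale), and starts within 2 nt add the later form of miR-203-3p. For the remaining moves the cause was not tested. Of the values of single members, 396 stayed and 120 moved. With a minimum of 20 reads miR-205-5p enters the comparison of the decoy libraries. Depth limits miR-205-5p (3 reads) and miR-200c-3p (48 reads) in TuD-let-7.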
